A study of Mus musculus with 8 samples.

Results

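The genes described here are 8 genes of cholesterol synthesis and its control in mouse marrow lymphoid progenitors: Hmgcs1, Idi1, Fdps, Sqle, Lss, Cyp51, Insig1 and Srebf2. They were chosen by name, out of 22878 gene symbols in the tables, because sterols made along this pathway can act as ligands of nuclear receptors of the ROR family in lymphoid cells. Of the 8, 7 passed the filter on low counts and were tested among 13619 genes. Hmgcs1 had no read in any library and was not tested.

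Polyadenylated RNA was sequenced from 4 sorted populations of C57BL/6 bone marrow, with 2 libraries each and no treatment or engineered allele named in the labels. All were live, lineage-negative, CD127+ and Kit+. Common lymphoid progenitors (CLP) were Flt3+, Sca-1+ and negative for integrin α4β7. The other 3 populations were integrin α4β7+ and lacked Flt3 and ST2: total common helper-like innate lymphoid progenitors (ChILP), and within that gate the PD-1+ CCR6- cells, named as progenitors of innate lymphoid cells except LTi (lymphoid tissue inducer) cells, and the PD-1- CCR6+ cells, named as LTi progenitors. Depletion of lineage-positive cells preceded the sort of CLP and ChILP, whereas magnetic capture through integrin α4β7 preceded that of PD-1+ and CCR6+ cells. Enrichment route and cell type therefore cannot be told apart in any comparison of CCR6+ or PD-1+ cells with CLP or ChILP, while CCR6+ against PD-1+ and ChILP against CLP lie within 1 route. The labels give no age and leave unsaid whether replicate libraries stem from different mice, so the p-values measure only the spread between these libraries, which may be technical.

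Cholesterol is built from acetyl-CoA. HMG-CoA synthase acts near the start, isoprenoid units are joined into squalene, squalene is oxidised and closed into lanosterol, and a series of demethylations and reductions gives cholesterol. The transcription factor SREBP-2 drives most of these genes when membrane sterol is low. When sterol is plentiful, the INSIG proteins hold it back in the endoplasmic reticulum. Oxidised sterols can bind the LXR receptors, which promote sterol export.

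Ccr6 and Pdcd1 separated CCR6+ from PD-1+ cells, while not all LTi markers were present. Each library held 7685191 to 13997891 reads in genes. Ccr6 reached 84.2 and 23.6 RPKM (reads per kilobase of transcript, scaled to the library total) in the CCR6+ libraries, and 0 to 8.21 in the other 6. Pdcd1, the gene of PD-1, reached 181 and 36.3 RPKM in PD-1+ and 0 and 1.10 in CCR6+; total ChILP, at 70.9 and 92.8, lay between the PD-1+ libraries. Of 10 markers of LTi cells and group 3 innate lymphoid cells, 8 had a read. Il22 and Il17a had no read in any library. The LTi genes Lta and Il23r were higher in both CCR6+ libraries than in the other 6. Cxcr5 did not follow, at 17.8 and 13.1 RPKM in CCR6+ beside 63.0 and 10.5 in PD-1+. Ltb, at 363 and 267 in CCR6+ beside 494 and 256 in PD-1+, also overlapped. Tnfsf11 and Il1r1 in CCR6+ overlapped CLP. Transcripts of other marrow cells differed with the enrichment route. The 8 erythroid markers, all with reads, summed to 1139 to 6539 RPKM in CLP and ChILP, 28246 and 32719 for PD-1+ and 33261 and 40773 in CCR6+. The 7 mature myeloid markers, all with reads, summed to 1114 to 6319 RPKM in CLP and ChILP, 15638 and 31579 in PD-1+ cells and 21058 and 33971 in CCR6+. The 4 early myeloid markers, all with reads, went the other way: they summed to 6857 to 9705 RPKM in CLP and ChILP, 729 and 1421 for PD-1+ and 1100.2 and 1704 for CCR6+. The 10 proliferation markers, all with reads, summed to 832 to 950.3 RPKM in CLP and ChILP. They summed to 616 and 636 in PD-1+ cells and 688 and 877 in CCR6+. Their directions were mixed. In PD-1+ and CCR6+ against CLP and ChILP, edgeR's log2 fold change was 1.05 for Mki67, -0.65 for Mcm2 and -0.74 for Mcm5. In such bulk libraries fewer cells of a type and less RNA per cell cannot be told apart.

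The main result was a low level of Sqle, which encodes squalene epoxidase, the enzyme that oxidises squalene before ring closure. Sqle (NM_009270) had 15.5 and 23.0 RPKM in the CLP libraries, then 21.5 and 15.0 in ChILP. Its levels were 6.23 and 6.16 RPKM in PD-1+ cells and 5.51 and 4.77 in CCR6+ cells, on 162 to 1079 reads per library. All 4 libraries of the captured populations lay far below all 4 of CLP and ChILP, and CCR6+ lay slightly below PD-1+. The mean was 5.67 ± 0.681 RPKM (SD, n = 4) over PD-1+ and CCR6+ and 18.7 ± 4.08 (SD, n = 4) over CLP and ChILP.

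**Figure D1:**
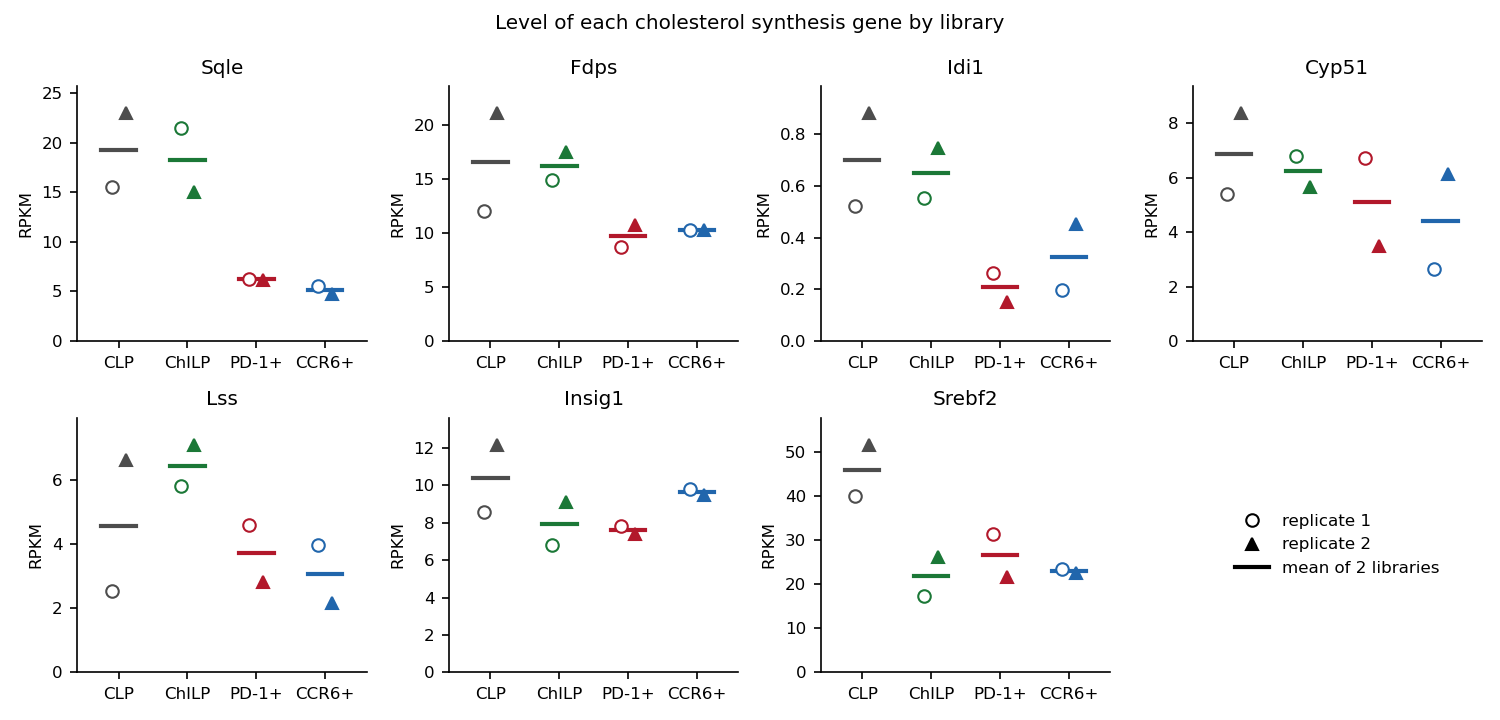
RPKM on the vertical axis of 7 members in CLP, ChILP, PD-1+ and CCR6+ libraries; circles are replicate 1, triangles replicate 2 and lines the mean of 2 libraries. Each panel has its own scale from 0, and Hmgcs1, with no read, is not drawn. Sqle lies between 4.77 and 6.23 RPKM in PD-1+ and CCR6+ and between 15.0 and 23.0 in CLP and ChILP.

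Earlier in the pathway, Idi1 and Fdps showed the same order less clearly. Idi1 (NM_145360), whose enzyme interconverts the isoprenoid building blocks, was measured at 0.522 and 0.882 RPKM in CLP, 0.554 and 0.746 in ChILP, 0.264 and 0.150 in PD-1+ cells and 0.196 and 0.455 in CCR6+. These rest on only 6 to 37 reads per library. Fdps (NM_001253751), encoding farnesyl diphosphate synthase, was measured at 12.0 and 21.1 RPKM in CLP, 14.9 and 17.5 in ChILP, 8.71 and 10.7 in PD-1+ cells and 10.3 and 10.3 in CCR6+. For both genes each captured library was below each CLP and ChILP library, although for Fdps the highest captured library, at 10.7, was close to the lowest CLP library, at 12.0. A further listed Fdps transcript, NM_134469, shares reads with this one and ran from 10.2 to 24.0 RPKM.

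The members Lss and Cyp51, whose enzymes act after squalene epoxidation, did not set the captured libraries apart from CLP. Lss (NM_146006), encoding lanosterol synthase, which closes the sterol ring, was at 2.53 and 6.61 RPKM in CLP, 5.79 and 7.08 in ChILP, 4.59 and 2.82 in PD-1+ cells and 3.95 and 2.17 in CCR6+. Cyp51 (NM_020010), encoding the lanosterol demethylase that makes the first sterols after lanosterol, was at 5.41 and 8.37 RPKM in CLP, 6.80 and 5.67 in ChILP, 6.73 and 3.49 in PD-1+ cells and 2.64 and 6.15 in CCR6+. Lss was lower in all 4 captured libraries than in both ChILP libraries, but the 2 CLP libraries spanned nearly the whole range. For Cyp51 every group overlapped every other: CCR6+ replicate 1 had the lowest Cyp51 of all 8 libraries, while CCR6+ replicate 2 lay above a library of CLP and of ChILP.

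The 2 control genes followed another order. Srebf2 (NM_033218), the gene of SREBP-2 itself, had the highest level of the members, at 40.0 and 51.6 RPKM in CLP, 17.3 and 26.3 in ChILP, 31.4 and 21.7 in PD-1+ cells and 23.6 and 22.6 in CCR6+, on 1151 to 3453 reads. Only the CLP libraries stood apart, above the other 6, whose groups overlapped. Insig1 (NM_153526), encoding the sterol-dependent retention protein and itself a target of SREBP-2, was nearly flat, at 8.58 and 12.2 RPKM in CLP, 6.80 and 9.10 in ChILP, 7.82 and 7.41 in PD-1+ cells and 9.79 and 9.46 in CCR6+. Both CCR6+ libraries were above both PD-1+ libraries and within the range of CLP.

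Hmgcs1 (NM_145942), encoding the cytosolic HMG-CoA synthase, is listed at 0 in all 8 libraries, and no statement about its expression can be made. A column of the tables appears to count the places of a transcript in the genome, since all 138 accessions listed on more than 1 line have a value above 1 there; Hmgcs1 has the value 2. Of 493 such lines, 446 (90.5%) have no read in any library, against 25.4% of the transcripts with 1 place. The tables also place Hmgcs1 on the minus strand, whereas RefSeq gives the plus strand.

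Promoters were compared for the members found in the RefSeq table, 6 of 8, over the 250 bases before the start site; Sqle and Fdps are not among them. Both strands were searched for the sterol regulatory element TCACNCCAC, the NF-Y motif CCAAT and the Sp1 motif GGGCGG, which occur in 1.05%, 33.8% and 32.7% of 32851 promoters of that length. CCAAT and GGGCGG each occurred at least once in all 6 members, and TCACNCCAC occurred in Hmgcs1 alone. Srebf2 is shown because its level set CLP apart, and Hmgcs1 because it holds all 3 motifs. Capitals mark matches on either strand, in GRCm38.p6, for Srebf2 at chr15:82147019-82147268 and for Hmgcs1 at chr13:119690101-119690350, both on the plus strand.
Srebf2: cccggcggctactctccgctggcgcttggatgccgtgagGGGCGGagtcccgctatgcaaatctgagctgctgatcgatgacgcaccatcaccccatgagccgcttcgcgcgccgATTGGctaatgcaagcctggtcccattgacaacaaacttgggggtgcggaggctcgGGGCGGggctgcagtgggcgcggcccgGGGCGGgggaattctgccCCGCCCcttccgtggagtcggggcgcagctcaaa
Hmgcs1: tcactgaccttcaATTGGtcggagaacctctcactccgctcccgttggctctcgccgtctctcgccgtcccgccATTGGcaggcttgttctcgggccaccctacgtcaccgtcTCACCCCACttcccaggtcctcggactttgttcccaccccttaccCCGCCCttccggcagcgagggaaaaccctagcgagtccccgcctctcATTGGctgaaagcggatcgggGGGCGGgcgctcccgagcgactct
The match TCACCCCAC in Hmgcs1 begins 137 bases before the start site. A match is a description of the letters, not of binding, and the absence of one says only that these letters are not in the window.

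CCR6+ against PD-1+ asks whether the pathway differs between LTi progenitors and the progenitors of other innate lymphoid cells. No member was called at an adjusted p under 0.05 by the quasi-likelihood test of edgeR (Benjamini-Hochberg adjustment), and neither was any of the 13619 genes (0% called). At an unadjusted p under 0.05 there were 801 genes and no member. DESeq2 called 131 genes, limma 2 on log2(RPKM + 1) and 0 on log2(RPKM + 0.1), and none of these was a member. The log2 fold changes ran from -0.21 (SE 0.31) for Sqle to 0.72 (SE 1.45) for Idi1. Insig1 was at 0.40 (SE 0.32, edgeR adjusted p = 0.880). Cyp51 was at -0.14 (SE 0.47), Lss at -0.20 (SE 0.56), Fdps at 0.14 (SE 0.38) and Srebf2 at -0.13 (SE 0.25); each of these 4 changed sign in at least 1 of the fits that left out a library. No member differed beyond the spread between libraries by this test, which does not show that the groups are alike. Even the genes of the sorting markers were not called. Pdcd1 was at -7.39 (edgeR adjusted p = 0.331) and Ccr6 at 3.73 (edgeR adjusted p = 0.849). The median over the 7 tested members was -0.13, beside -0.01 over all genes. Insig1 was the only member higher without overlap (background 14.2% of genes) and Sqle the only member lower without overlap (background 19.0%).

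ChILP against CLP asks what changes with commitment to innate lymphoid fate. No member was called (0.0220% of all genes were, 0.00734% higher and 0.0147% lower), although Srebf2 was lower in both ChILP libraries, the only member without overlap in that direction (background 18.6%). None was higher without overlap (background 17.0%). Srebf2 had a log2 fold change of -1.01 (SE 0.25), with an unadjusted p of 0.0039 and an adjusted p of 0.311 by edgeR's quasi-likelihood test. DESeq2 called it, at -1.04 with an adjusted p of 0.0180, among 261 genes. It was the only member with an unadjusted edgeR p under 0.05, among 792 genes. The other 6 lay near 0, from -0.32 (SE 0.31) for Insig1 to 0.58 (SE 0.55) for Lss, with Sqle at -0.01 (SE 0.30). The median was -0.04, beside 0.05 over all genes.

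CCR6+ against CLP compares LTi progenitors with the uncommitted stage, across enrichment routes. Sqle fell, 2.94-fold (log2 -1.56, SE 0.31, edgeR adjusted p = 0.0208), and was the only one of 7 tested members called, against 11.4% of all genes in either direction, 6.59% called higher and 4.79% lower. The call was lost without CLP replicate 2 (log2 -1.33, adjusted p = 0.146), CCR6+ replicate 1 (-1.67, adjusted p = 0.0734) or CCR6+ replicate 2 (-1.45, adjusted p = 0.0933). Srebf2 was at -0.65 (SE 0.25, edgeR adjusted p = 0.139); limma on log2(RPKM + 1) called it, at -0.95 with an adjusted p of 0.0403. Sqle, Idi1, Fdps and Srebf2 were lower in CCR6+ without overlap, as were 45.7% of all genes in RPKM, and no member was higher (background 19.8%). Idi1 was at -0.76 (SE 1.44), Fdps at -0.34 (SE 0.38), Cyp51 at -0.30 (SE 0.47), Lss at -0.22 (SE 0.56) and Insig1 at 0.24 (SE 0.31), none of them called. With limma on log2(RPKM + 1), which also changes the filter, the test and the scaling, the median of all genes was -0.36 in place of -0.09, and Insig1 stood at -0.08. The members' median was -0.34, beside -0.09 over all genes.

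The comparison of all 4 captured libraries with all 4 depleted ones was added after the values of Sqle had been seen, and it shares libraries with the comparisons above. In it Sqle was 2.73-fold lower (log2 -1.45, SE 0.22, edgeR adjusted p = 0.00395), on a background of 22.0% of all genes called and 10.5% called lower. Leaving out any 1 library left the value between -1.57 and -1.31 with an adjusted p from 0.00746 to 0.0184. No other member was called: Idi1 was at -1.10 (SE 1.02), Fdps at -0.42 (SE 0.27), Lss at -0.41, Cyp51 at -0.20, Insig1 at 0.19 and Srebf2 at -0.08. Sqle, Idi1 and Fdps were lower without overlap (background 22.5%), and none was higher (background 9.05%). Within 1 route, ChILP and CLP differed in Sqle by -0.01 and CCR6+ and PD-1+ by -0.21 on the log2 scale, so nearly all of its difference lay between the routes, with which the marker sums above also moved. The early myeloid sum was lower in the captured libraries, as Sqle was; all 4 of its genes, Mpo, Elane, Prtn3 and Ctsg, were called lower there, with log2 fold changes from -2.89 for Mpo to -2.05 for Prtn3 by edgeR. The erythroid and mature myeloid sums were higher. The part of these transcripts in the Sqle difference was not tested. The members' median was -0.41, beside -0.08 over all genes.

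**Figure D2:**
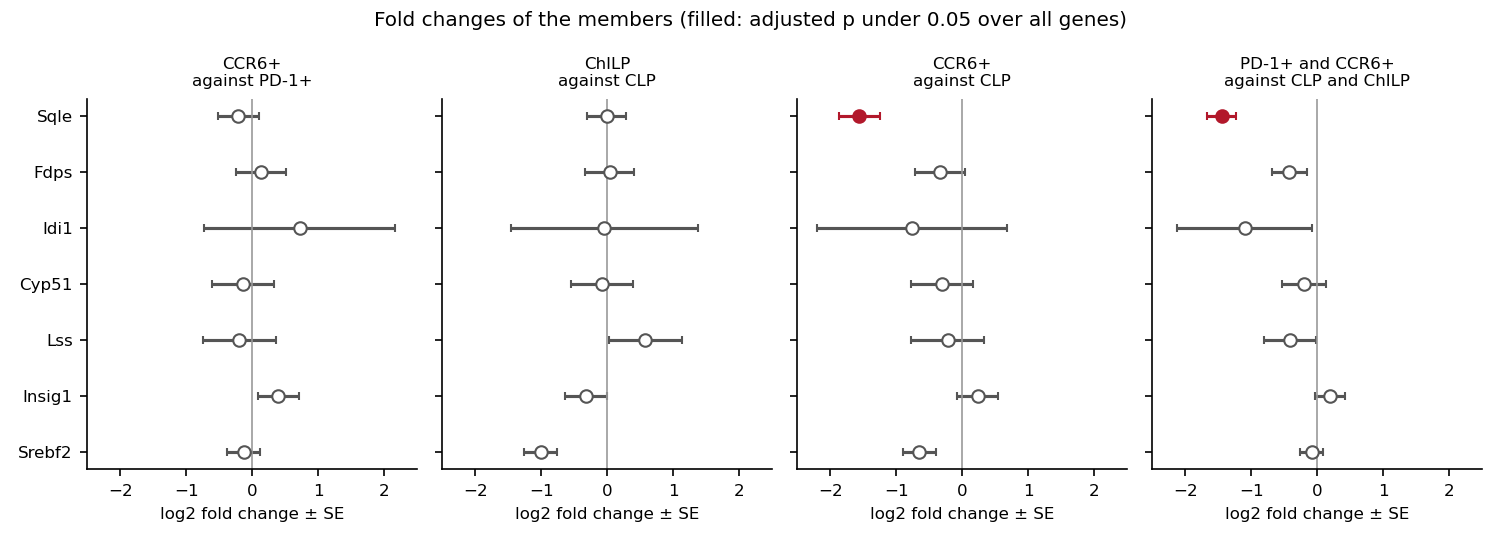
Log2 fold change (horizontal axis, edgeR) with its standard error as bars for 7 members in 4 comparisons; filled points have an adjusted p under 0.05 over all 13619 genes. Sqle, at -1.56 and -1.45 in the comparisons that cross the enrichment routes, is the only filled point.

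Across the 8 libraries Sqle, Fdps and Idi1 varied together more than Sqle did with the control genes. On log2(RPKM + 1), Pearson's r was 0.859 for Sqle with Fdps, 0.813 for Sqle with Idi1 and 0.879 for Fdps with Idi1. It was 0.674 for Insig1 with Srebf2, but 0.127 for Sqle with Insig1 and 0.373 for Sqle with Srebf2. Other pairs lay between, among them Cyp51 with Idi1 (0.742), Lss with Fdps (0.704), Idi1 with Insig1 (0.478) and Fdps with Insig1 (0.450). The 8 points share their groups, routes and scaling, so these values are descriptions. Among 5909 other genes with a mean of at least 10 RPKM, those closest to the members' mean profile were Zfp574 (r = 0.978), Gabpb1 (0.973), Wars (0.971), BC003965 (0.960) and Mrps12 (0.960), none of them a sterol gene. Zfp574 ranged from 17.7 to 30.0 RPKM over the depleted libraries and from 11.1 to 14.1 over the captured ones.

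The wider pathway was followed in 5 lists holding 59 genes, of which 55 were tested. In CCR6+ against PD-1+ none of them was called by edgeR; 5 had an unadjusted p under 0.05, and DESeq2 called 3, the fatty acid genes Scd2 and Elovl6 and the receptor gene Rora, all lower in CCR6+. In ChILP against CLP edgeR called none, 3 had an unadjusted p under 0.05 and DESeq2 called 3, Srebf2 and Rora among them. In CCR6+ against CLP edgeR called 14 of the 55, of which 9 rose and 5 fell, beside 11.4% of all genes called, 6.59% higher and 4.79% lower. Leaving out 1 library gave only 1 to 4 calls, and Apoe alone was called each time.

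Among the 22 synthesis enzymes, 21 were tested. In CCR6+ against CLP 2 rose and Sqle fell, with a median of -0.11. Of all genes, 6.59% were called higher and 4.79% lower in this comparison. Fdft1, encoding squalene synthase, the step directly before Sqle, had 6.40 and 5.75 RPKM in CLP, beside 10.6 and 16.7 in CCR6+. It rose (log2 1.49, SE 0.38, edgeR adjusted p = 0.0444), but this call was lost in 7 alternatives and kept in 6. Leaving out 1 library gave log2 1.14 to 1.78 for Fdft1. With all libraries, neighbouring steps moved in opposite directions. Lbr, encoding the lamin B receptor, which also reduces sterols after lanosterol, rose (log2 1.03, SE 0.22, edgeR adjusted p = 0.0253). Dhcr7, the last reductase, fell in the captured against the depleted libraries (log2 -1.04, SE 0.26, edgeR adjusted p = 0.0239), a call lost in 5 of 16 alternatives, with an adjusted p of up to 0.0800 when 1 library was left out. In CCR6+ against PD-1+ the list had a median of 0.08 and ran from -2.13 for Hsd17b7 to 1.15 for Mvk, with Fdft1 at 0.29, none called. The Mvk value (SE 1.60) rests on 0 and 131 reads in the PD-1+ libraries.

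The 11 genes of SREBP-2 control and sterol uptake held no call in CCR6+ against CLP. An unadjusted edgeR p under 0.05 was found for 5 of them, beside 3745 of all 13619 genes. Mylip, encoding a ubiquitin ligase under LXR control, was higher in the captured than in the depleted libraries (log2 0.75, SE 0.21, edgeR adjusted p = 0.0383), but the call was lost in 10 of 16 alternatives, with an adjusted p of up to 0.139 when 1 library was left out. In CCR6+ against PD-1+ Stard4, a sterol carrier, was at 0.90 and Insig2, a paralogue of Insig1, at -0.18, and no gene of the list was called. The Stard4 value (SE 0.89) rests on 22 and 258 reads in the PD-1+ libraries.

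Among the genes of sterol oxidation, storage and efflux, 4 were higher in CCR6+ than in CLP. Of 15, 13 were tested, 4 rose and none fell, with a median of 0.90, or 1.21 without Cyp46a1, which had no read in CCR6+. The shares over all genes were 6.59% called higher and 4.79% lower. Apoe, the lipoprotein component that carries exported cholesterol, had 241 and 110 RPKM in CLP, beside 1552 and 1403 in CCR6+ and rose (log2 3.38, SE 0.41, edgeR adjusted p = 0.00686). Cyp27a1, a sterol hydroxylase that makes LXR ligands, had 2.67 and 3.72 RPKM in CLP, beside 32.6 and 34.7 in CCR6+ and rose (log2 3.73, SE 0.68, edgeR adjusted p = 0.0168). Lipa, the lysosomal cholesteryl ester hydrolase, and Npc2, which moves sterol out of lysosomes, rose as well (log2 1.86 and 1.52, edgeR adjusted p = 0.0143 and 0.0168). Nr1h3, encoding LXRα, was called only with ChILP and PD-1+ libraries added (log2 2.74, SE 0.57, edgeR adjusted p = 0.0127). All 5 genes are also expressed by macrophages, for which no particular marker was examined. The mature myeloid sum, of Lyz2, S100a8, S100a9, Ngp, Camp, Ltf and Mmp9, does not measure macrophages. It moved the same way in these libraries, from 1114 and 4879 RPKM in CLP to 21058 and 33971 in CCR6+. The part of myeloid transcripts was not tested. In CCR6+ against PD-1+ edgeR called none of the list, nor any of the 13619 genes. The absence of calls there therefore says nothing particular about the list. Cyp27a1 was at 0.81 there, and Cyp46a1, with 72 reads in PD-1+, was at least 20.3-fold lower in CCR6+ against a floor of 3 counts over the group, with an edgeR adjusted p of 0.840.

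Of 8 genes of fatty acid synthesis, which SREBP-1 controls, 4 fell and 1 rose in CCR6+ against CLP, with a median of -1.08. Over all genes 4.79% were called lower and 6.59% higher. Fasn (log2 -1.56), encoding fatty acid synthase, and Fads2 (-1.99), Scd2 (-1.88) and Elovl6 (-1.81), whose enzymes desaturate or lengthen fatty acids, fell with edgeR adjusted p from 0.0203 to 0.0357. Scd1, a desaturase related to Scd2, rose (log2 3.08, SE 0.77, edgeR adjusted p = 0.0417). Scd2 stood at 19.9 and 18.1 RPKM in CLP, 23.6 and 11.9 in PD-1+ cells and 5.17 and 3.06 in CCR6+, so it was low in CCR6+ within the captured route too. Elovl6 had the same order, at 4.43 and 3.58 RPKM in PD-1+ and 0.786 and 1.37 in CCR6+. Fads2 instead was as low in PD-1+, at 5.89 and 4.94 RPKM, as in CCR6+, at 8.56 and 4.09. The early myeloid sum, low in both captured groups, moved with Fads2; its part was not tested. In CCR6+ against PD-1+ the log2 fold changes ran from -2.03 for Scd2 to 0.29 for Fads2, with a median of -0.52, and edgeR called none.

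**Figure D3:**
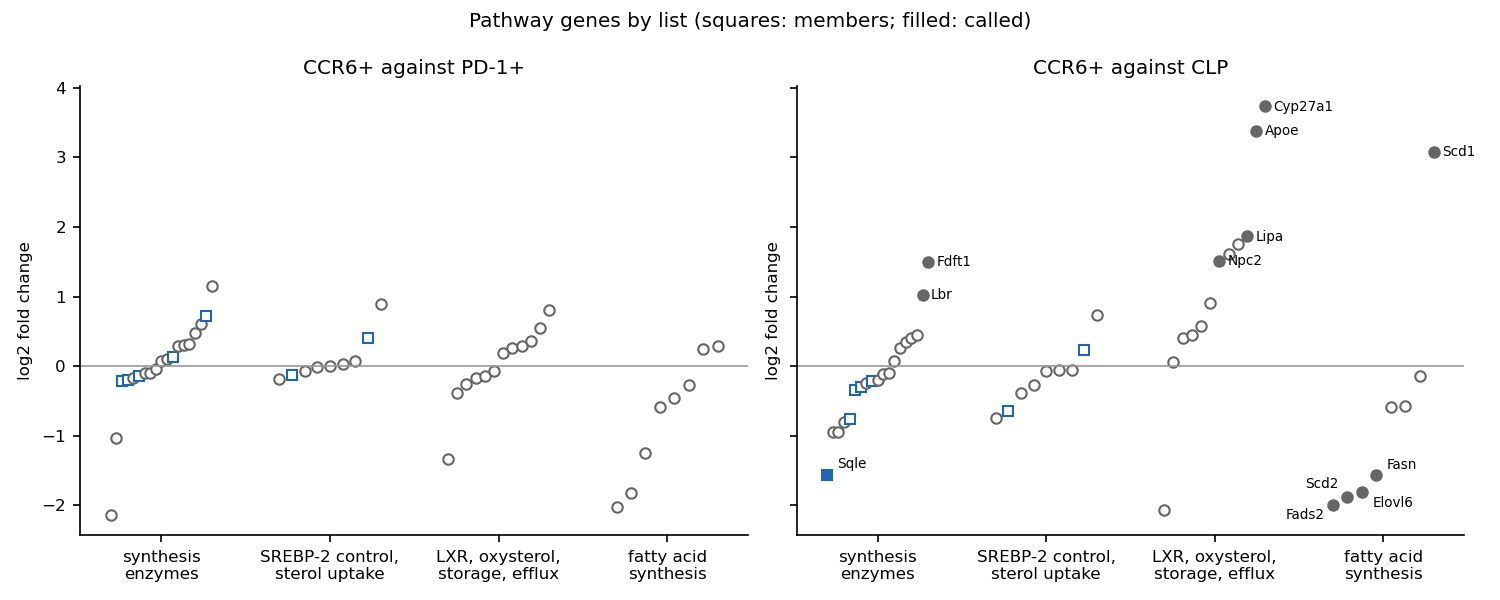
Log2 fold change (vertical axis, edgeR) of the tested genes of 4 pathway lists in CCR6+ against PD-1+ (left) and CCR6+ against CLP (right), ordered within each list; squares are members and filled symbols have an adjusted p under 0.05 over all genes. Not all tested genes are drawn, Cyp46a1, with no read in CCR6+, among those left out; no symbol is filled on the left, while on the right Sqle at -1.56 is the only filled member.

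Rora, encoding a nuclear receptor of the ROR family, stood at 3.18 and 2.24 RPKM in CLP, 76.7 and 165 in ChILP, 307 and 73.7 in PD-1+ cells and 24.6 and 10.7 in CCR6+. CLP was lowest, CCR6+ next, and ChILP and PD-1+ were highest and overlapped. Rora rose in CCR6+ against CLP (log2 3.03, SE 0.75, edgeR adjusted p = 0.0391) and was at -3.33 in CCR6+ against PD-1+ (edgeR adjusted p = 0.599). Rorb, of the same family, had no read. Sqle and Rora thus did not share an order: ChILP and PD-1+ both had high Rora, with Sqle at the level of CLP in the former and of CCR6+ in the latter.

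**Figure D4:**
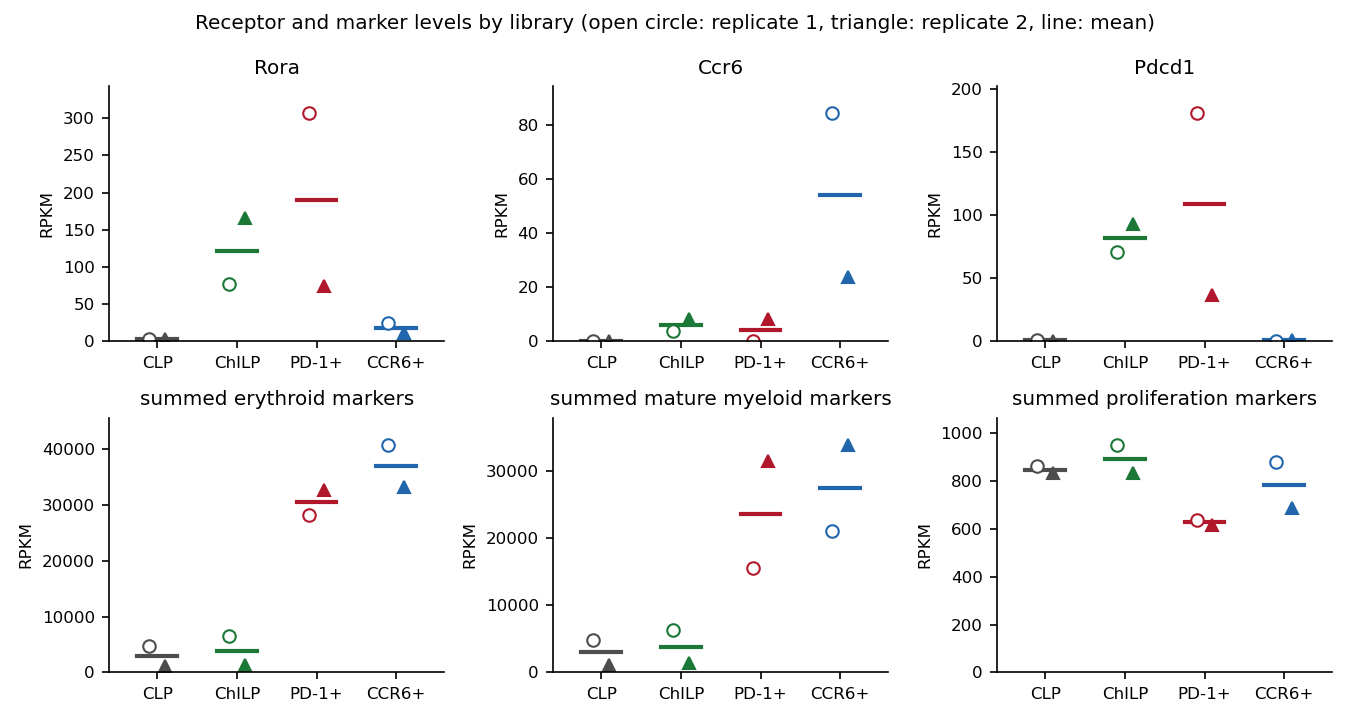
RPKM (vertical axes from 0) by library of Rora, Ccr6 and Pdcd1 (top) and summed RPKM of erythroid, mature myeloid and proliferation markers (bottom); circles are replicate 1, triangles replicate 2 and lines the mean. Rora is at 2.24 to 24.6 RPKM in CLP and CCR6+ and at 73.7 to 307 in ChILP and PD-1+, and the erythroid and mature myeloid sums are higher in all PD-1+ and CCR6+ libraries than in all CLP and ChILP libraries.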

How the data were processed

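RNA from 8 sorted samples (4 groups of 2) was made into Smart-seq2 libraries and read at 50 bases, per the labels' protocols. Smart-seq2 amplifies full-length transcripts and carries no molecular identifiers, so counting error is a lower limit. Bowtie2 2.2.2, CASAVA 1.8.4 and build mm9 come from the submitters' processing notes; the counter, its strand setting and the annotation release were not given in the sources used here. Hence a gene and its antisense partner cannot be told apart. The authors deposited a whole-number read count and an RPKM value for 29257 RefSeq transcripts in each library. In the deposited values RPKM is the count divided by transcript length and by a library total. The transcript with the most reads on average stood for its symbol.

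The test was a robust quasi-likelihood F test (edgeR 4.0.16, R 4.3.3; two-sided, TMM factors, filterByExpr at a minimum count of 10) in 1 model of the 4 groups, which left 4 residual degrees of freedom and gave a common biological coefficient of variation of 0.526. Genes with a Benjamini-Hochberg p under 0.05 across 13619 genes are the calls; "rose", "fell" and "called" mean this. Levels are deposited RPKM. Alternatives were DESeq2 1.42.0 size factors and Wald test, limma 3.58.1 on log2(RPKM + 1) and log2(RPKM + 0.1) with a floor of 1 RPKM in 2 libraries, no filter, 5 RPKM in 2 libraries, the longest transcript, only the libraries compared, a replicate block, and leaving out each library.

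The members and lists were chosen with earlier results of these data known, and the comparison of captured with depleted libraries after seeing the data. Beyond the members, the rule named every called pathway gene, the highest and lowest of each list in CCR6+ against PD-1+, Fdft1 and Rora, and the 5 genes most like the members; genes called by DESeq2 were added after their values were seen. Other genes that the rule names are not reported here. Promoter sequences are RefSeq's, in GRCm38.p6.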

Additional observations from a re-analysis of the deposited data

How the results depend on the processing

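With 2 libraries a group, 1 library often decided a value, and where a call or sign changed the cause was not tested. The comparison of captured with depleted libraries was added after the values of Sqle had been seen. Refits of the same libraries are therefore no independent support. In that comparison Sqle was called lower under all 16 alternatives. For CCR6+ against CLP it was called under each alternative other than leaving out CLP replicate 2 or either CCR6+ library.

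In CCR6+ against PD-1+ 131 genes were called with DESeq2, 3 of them in the pathway, 2 with limma on log2(RPKM + 1), and 0 to 36 when 1 library was left out. The members' median then ran from -0.14 to 0.13. The ranges when 1 library was left out included both signs for Cyp51 (-0.86 to 0.35), Lss (-0.70 to 0.18), Fdps (-0.04 to 0.37), Srebf2 (-0.31 to 0.10), Fdft1 (-0.06 to 0.61), Insig2 (-0.59 to 0.14) and Fads2 (-0.34 to 0.74).

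In ChILP against CLP the 3 genes called became 0 with DESeq2 size factors, 261 with the DESeq2 test, 55 and 46 with limma (pseudocounts 1 and 0.1), 63 with no filter, 15 with at least 5 RPKM, 59 with only the 4 libraries compared and 0 to 24 when 1 library was left out. DESeq2 called 1 member, Srebf2. Pathway calls were 3 with DESeq2, 1 and 2 with limma, 1 with only the 4 libraries and 0 to 1 when 1 library was left out. Fdps was -0.00 with only the 4 libraries, and leaving out 1 library gave -0.26 to 0.41 for Fdps, -0.29 to 0.22 for Sqle, -0.30 to 0.19 for Cyp51 and -0.31 to 0.30 for Idi1.

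In CCR6+ against CLP the 1549 genes called became 2768 with DESeq2, 3116 and 2797 with limma, and 83 to 770 when 1 library was left out; the lowest count was without CLP replicate 2. Of the calls 57.9% were higher, 31.0% with limma on log2(RPKM + 1) and 68.3% without CLP replicate 1. Both limma fits called 2 members, Sqle and Srebf2. Leaving out 1 library gave 0 to 1 member and 1 to 4 pathway genes. The members' median was -0.67 with limma on log2(RPKM + 0.1) and -0.71 to -0.04 when 1 library was left out. Insig1 was -0.08 and -0.09 with limma, and leaving out 1 library gave -0.72 to 0.54 for Lss, -0.63 to 0.04 for Fdps and -1.03 to 0.17 for Cyp51.

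For captured against depleted libraries, leaving out 1 library gave 1678 to 3038 genes and a members' median of -0.57 to -0.07. Of the 2991 calls 52.0% were higher, and 29.3% with limma on log2(RPKM + 1). Insig1 was -0.06 and -0.07 with limma, and leaving out 1 library gave -0.22 to 0.09 for Srebf2 and -0.56 to 0.04 for Cyp51.

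The labels number the libraries 1 and 2 in each group without saying that a number marks a shared animal or day. Deviations from the group mean correlated between same-numbered libraries at -0.106 to 0.094 over 13619 genes, and the numbers were not taken as pairs. A low correlation over all genes does not exclude a shift shared by some of them. Within a route the value was 0.094 for CLP and ChILP and 0.080 for PD-1+ and CCR6+. The mature myeloid sum was higher in replicate 1 of CLP and ChILP (4879 and 6319 RPKM, beside 1114 and 1375). It was lower in replicate 1 of PD-1+ and CCR6+ (15638 and 21058, beside 31579 and 33971). The erythroid sum was also higher in replicate 1 of CLP and ChILP (4791 and 6539 RPKM, beside 1139 and 1259). A block shared by all 8 libraries cannot hold a shift that reverses between routes, and a pairing within each route was not fitted. With the replicate number as a block, 0, 0, 1153 and 2545 genes were called in the 4 comparisons, 0, 0, 12 and 14 of them pathway genes, and Sqle kept both calls.

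Idi1, on 6 to 37 reads, is limited by depth.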
